A study of Mus musculus with 12 samples.

Results

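The cholesterol genes described here are 31 genes chosen by name out of 55421 genes in the table: 18 enzymes of cholesterol synthesis, 5 genes of sterol sensing, and 8 genes of cholesterol transport, esterification and efflux. Their messenger RNA was followed in 12 libraries from mouse gastric organoids, which are cultures grown in gel from isolated stomach glands, with and without inhibition of Wnt signalling. All 31 genes are annotated as protein-coding, were counted over the whole gene, and had enough counts to be tested.

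Every organoid was of the WT genotype, had been passaged at least 3 times, and was labelled as corpus epithelial cells (the body of the stomach) or as antral cells (its outlet). In each region 3 independent lines, numbered 8025, 8026 and 8028, were split into an inhibited and a vehicle arm on day 4 after passage, and RNA was taken 24 h later, which gives 4 groups of 3 libraries. The inhibited arm received the tankyrase inhibitor XAV939 (1 mM as labelled), which dampens Wnt signalling, lost the added Wnt and R-spondin, and was given Noggin-1, which blocks BMP ligands, at 100 ng/mL. The vehicle arm received DMSO in normal medium, of which 50% is L-WRN medium, conditioned by cells engineered to release Wnt, R-spondin and Noggin. Compound and medium therefore changed together. The serum of the inhibited medium is not given in the sources used here, and growth medium contained fetal bovine serum at 10% in antral cultures but at 20% in corpus ones, so that serum and region cannot be told apart. Serum carries lipoprotein cholesterol.

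Cells build cholesterol from acetyl units through mevalonate, squalene and lanosterol, and also take it up from lipoproteins. When sterols in the endoplasmic reticulum run low, SCAP escorts the SREBP factors to the Golgi, where they are cleaved and released to switch on the synthesis enzymes. When sterols are plentiful, INSIG proteins hold the complex back, surplus cholesterol is stored as esters by SOAT enzymes, and oxysterol-activated receptors switch on the exporters ABCA1 and ABCG1.

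Library totals were 18858022 to 31656696 counts, of which 63518 to 155290 per library fell on the 31 genes. Levels are given as CPM, each count over the TMM-scaled total of its library. The upper limit for a gene with no reads, 3 counts, equalled 0.0889 to 0.177 CPM, counting error only. The Wnt targets Axin2 and Lgr5 checked the labels: Axin2 had 3.71, 5.39 and 18.7 CPM in inhibited corpus against 70.7, 64.2 and 71.4 CPM in vehicle corpus, and 11.5, 14.3 and 11.3 CPM in inhibited antrum against 70.1, 78.95 and 77.4 CPM in vehicle antrum, here and throughout in the order of lines 8025, 8026 and 8028. Lgr5 had 0.206, 1.03 and 1.77 CPM in inhibited and 51.1, 51.1 and 42.4 CPM in vehicle corpus, and 1.83, 1.42 and 1.25 CPM in inhibited and 46.3, 40.04 and 48.8 CPM in vehicle antrum. Inhibited corpus line 8028 kept the most Axin2 of the inhibited libraries. Genes that carry ribosomal RNA-like sequence made up 17.2% of antral vehicle line 8025 and 6.87% of antral vehicle line 8028, but 0.839% to 3.45% of each of the other libraries. The summed level of 4 epithelial markers was 9125 to 9874 CPM in inhibited and 4643 to 5277 CPM in vehicle corpus, and 9188 to 10378 CPM in inhibited and 5206 to 5695 CPM in vehicle antrum. That sum was carried by the keratins Krt8 and Krt18, which rose in both regions (log2 1.20 and 0.64 in corpus, 1.08 and 0.68 in antrum), while the adhesion gene Epcam fell in corpus (log2 -0.47 ± 0.13, adjusted p 0.016) and, at -0.30 ± 0.13 in antrum (adjusted p 0.0965), did not pass there. The junction gene Cldn7 did not pass in either region (adjusted p 0.168 in corpus and 0.204 in antrum). All 7 gastric lineage markers changed in both regions. Those of surface pit cells, Tff1, Gkn2 and Muc5ac, rose by log2 3.29, 3.78 and 5.66 in corpus and by 3.54, 4.99 and 6.67 in antrum, and Tff2, a trefoil gene of mucous neck and gland cells, by 2.26 in corpus and 2.89 in antrum. The gland mucin gene Muc6 and the chief cell genes Pgc and Cblif fell, with log2 changes of -4.04, -3.21 and -4.96 in corpus and -3.38, -1.75 and -3.39 in antrum. Summed, the 7 markers stood at 2584 to 3637 CPM in inhibited and 682 to 1002 CPM in vehicle corpus, and at 4269 to 4566 CPM in inhibited and 687 to 1051 CPM in vehicle antrum. Collagen, endothelial and liver markers were at or near 0, with sums of 5 fibroblast genes from 0.274 to 1.47 CPM. Of 3 leukocyte markers, Cd68 alone exceeded 1 CPM (9.56 to 50.6 CPM). The labelled regions were weakly marked. The parietal gene Atp4b was at 0 in 11 of the 12 libraries, and Atp4a, also parietal, was at 0.188 to 1.56 CPM. The antral hormone gene Gast did not exceed 0.167 CPM. The antral factor gene Pdx1 stood at 43.5 to 47.9 CPM in inhibited and 29.8 to 32.8 CPM in vehicle antrum. It also stood at 28.4 to 41.9 CPM in inhibited and 19.8 to 27.2 CPM in vehicle corpus. The chief cell gene Cblif had 192, 173 and 68.9 CPM in vehicle corpus and 49.8, 32.9 and 61.4 CPM in vehicle antrum. Those groups did not overlap, but the difference did not pass (log2 -1.59 ± 0.38, antrum minus corpus, adjusted p 0.11). Inhibited groups overlapped for Cblif.

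Most enzymes that make cholesterol rose in inhibited organoids of both regions, and Soat1, which stores it as ester, and the exporters Abca1 and Abcg1 fell. In corpus, 20 of the 31 genes rose, 4 fell and 7 did not pass the test, with a median log2 fold change of 0.54 against -0.04 over all 16152 genes tested. The background was 15.5% of all genes called higher and 15.4% called lower in that comparison. In antrum, 18 rose, 4 fell and 9 did not pass, with a median of 0.43 against -0.04, on a background of 16.3% higher and 13.4% lower. The calls were 18 genes higher and 4 lower in both regions, and none was called in opposite directions. Srebf2 and Srebf1 passed in corpus and not in antrum, and their difference between regions did not pass its own test (adjusted p 1 for each). Since these are bulk libraries, a change in the make-up of the cultures and a change in RNA per cell cannot be told apart. The keratins and the gastric lineage markers given above moved in the same comparisons, and their part in the results was not tested.

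**Figure D1:**
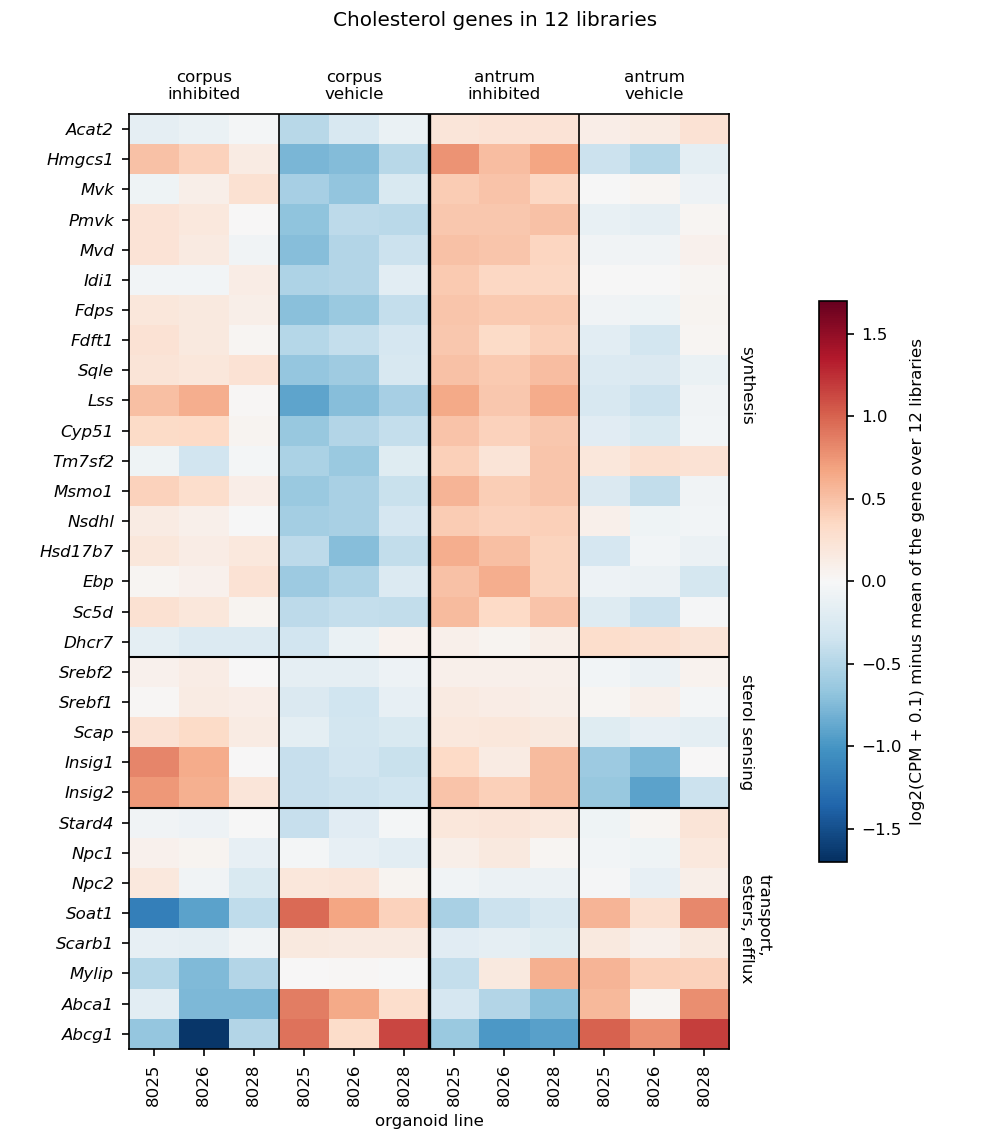
Level of the 31 cholesterol genes in each of the 12 libraries, as log2(CPM + 0.1) minus the gene's mean over all libraries (colour), with libraries in columns by group and line and genes in rows by role. Most synthesis rows are redder in the 6 inhibited columns than in the vehicle columns of the same region, while the Soat1, Abca1 and Abcg1 rows are bluer.

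Among the 18 synthesis enzymes, 15 rose in each region and 3 did not pass in either, with median log2 changes of 0.61 in corpus and 0.55 in antrum. All 15 that rose had inhibited and vehicle groups that did not overlap. How many of all genes tested had groups without overlap was not counted. The early part of the pathway leads from acetyl-CoA to farnesyl diphosphate. Hmgcs1, which makes HMG-CoA in the cytosol (ENSMUSG00000093930, GRCm38 chr13:119690379-119708260), had 680.2, 630.5 and 529 CPM in inhibited corpus and 279, 288 and 347 CPM in vehicle corpus. In antrum it had 817, 694 and 765 CPM in inhibited and 374, 343 and 428 CPM in vehicle organoids. Each inhibited library therefore lay above every vehicle library of its region, and it rose by log2 1.01 ± 0.12 in corpus (SE, adjusted p 9.95e-05) and 0.99 ± 0.12 in antrum (adjusted p 0.000109).

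The 3 enzymes that turn mevalonate into isopentenyl diphosphate had smaller log2 changes. Mvk, mevalonate kinase, averaged 41.9 ± 4.81 CPM in inhibited and 27.7 ± 4.19 CPM in vehicle corpus, and 52.3 ± 2.62 CPM in inhibited and 38.4 ± 1.65 CPM in vehicle antrum (SD, n = 3 each). Pmvk, the next kinase, averaged 86.3 ± 6.98 CPM in inhibited and 54.1 ± 4.96 CPM in vehicle corpus, and 108 ± 1.35 CPM in inhibited and 74.1 ± 5.45 CPM in vehicle antrum. Mvd, the decarboxylase, averaged 104 ± 10.7 CPM in inhibited and 67.1 ± 8.18 CPM in vehicle corpus, and 131 ± 6.61 CPM in inhibited and 94.9 ± 5.15 CPM in vehicle antrum. Their log2 changes were 0.60 for Mvk, 0.67 for Pmvk and 0.63 for Mvd in corpus, and 0.45, 0.55 and 0.47 for the same genes in antrum. Idi1, the isomerase that follows, had the smallest change of the 15 in both regions, 0.40 ± 0.089 in corpus and 0.37 ± 0.089 in antrum. It lost its call when library totals were left unscaled (adjusted p 0.117 in corpus and 0.0689 in antrum).

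Fdps joins isoprene units into farnesyl diphosphate, the last shared intermediate before sterols, ubiquinone and prenylated proteins. It had 331, 327 and 311 CPM in inhibited corpus and 177, 188 and 220.0 CPM in vehicle corpus, and 403, 397 and 395 CPM in inhibited antrum and 278, 276 and 300.5 CPM in vehicle antrum. The libraries within each inhibited group lay close together and none reached down to a vehicle library of its region. The log2 change was 0.73 ± 0.076 in corpus (adjusted p 4.42e-05) and 0.48 ± 0.076 in antrum (adjusted p 0.000647).

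Squalene synthesis and cyclisation come next. Fdft1, squalene synthase, averaged 174 ± 12.8 CPM in inhibited and 119.7 ± 8.74 CPM in vehicle corpus, and 207 ± 9.25 CPM in inhibited and 141 ± 17.3 CPM in vehicle antrum, with log2 changes of 0.54 ± 0.092 and 0.55 ± 0.092 in corpus and antrum. Of the exon bases of Fdft1, 18.3% overlap Ctsb on the other strand, a more highly counted gene that also rose (log2 0.41 ± 0.11 in corpus and 0.58 ± 0.11 in antrum). Whether counting used strand is not given in the sources used here, and reads of the 2 genes cannot be told apart in the overlap. Sqle, squalene epoxidase, had 217, 213 and 219.7 CPM in inhibited corpus against 117, 122 and 154 CPM in vehicle corpus, and 262, 254 and 267 CPM in inhibited antrum against 159, 156 and 172 CPM in vehicle antrum. It rose by log2 0.73 ± 0.089 in corpus (adjusted p 0.000123) and 0.69 ± 0.089 in antrum (adjusted p 0.000181), again without overlap.

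Lss, which folds squalene epoxide into lanosterol (ENSMUSG00000033105, GRCm38 chr10:76531588-76557138), had the largest rise of the 31 genes in corpus. Its level was 264, 284 and 187 CPM in inhibited corpus and 98.7, 112 and 125 CPM in vehicle corpus, with the lowest inhibited value in line 8028. In antrum it was 289, 254 and 285 CPM in inhibited and 153, 143 and 177 CPM in vehicle organoids. The groups were apart in both regions, at log2 1.13 ± 0.15 in corpus (adjusted p 0.000197) and 0.81 ± 0.15 in antrum (adjusted p 0.00165).

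Of the 8 listed enzymes that act between lanosterol and cholesterol, 6 rose in both regions, and Tm7sf2 and Dhcr7 did not pass. Cyp51, the lanosterol demethylase, averaged 359.6 ± 38.5 CPM in inhibited and 213 ± 18.00 CPM in vehicle corpus, and 414 ± 14.9 CPM in inhibited and 271 ± 20.9 CPM in vehicle antrum. Msmo1, the methylsterol oxidase, averaged 249 ± 24.4 CPM in inhibited and 144 ± 13.5 CPM in vehicle corpus, and 290.0 ± 17.4 CPM in inhibited and 176 ± 21.97 CPM in vehicle antrum. Their log2 changes were 0.76 ± 0.092 and 0.61 ± 0.091 for Cyp51 and 0.79 ± 0.11 and 0.72 ± 0.11 for Msmo1, in corpus and antrum. Nsdhl and Hsd17b7, partners of Msmo1 in demethylation, changed by 0.54 and 0.69 in corpus and by 0.43 and 0.65 in antrum. The sterol isomerase Ebp changed by 0.57 in corpus and 0.66 in antrum, and the desaturase Sc5d by 0.59 in corpus and 0.65 in antrum. The changes of these 6 passed, with adjusted p from 0.000112 for Cyp51 in corpus to 0.00221 for Ebp in corpus.

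The 3 enzymes that did not pass lie at the entry, middle and end of the route. Acat2, the cytosolic thiolase that joins the first acetyl units, had 119.7, 123 and 129 CPM in inhibited corpus and 95.4, 110.0 and 123 CPM in vehicle corpus, and 153, 156 and 156 CPM in inhibited antrum and 143, 146 and 157 CPM in vehicle antrum. Its near-identical neighbour Acat3 could share reads with it. Tm7sf2, a sterol reductase, had 33.3, 27.95 and 34.2 CPM in inhibited corpus and 23.97, 22.6 and 30.4 CPM in vehicle corpus, and 46.2, 40.7 and 48.6 CPM in inhibited antrum and 39.8, 42.3 and 41.4 CPM in vehicle antrum. Of its exon bases 12.1% are shared with Vps51 on the same strand. Dhcr7, a reductase that completes cholesterol, had 43.4, 41.7 and 41.4 CPM in inhibited corpus and 38.8, 44.9 and 50.9 CPM in vehicle corpus, and 51.9, 50.5 and 52.2 CPM in inhibited antrum and 59.8, 58.9 and 56.6 CPM in vehicle antrum. The groups of Acat2 and Tm7sf2 overlapped in both regions and those of Dhcr7 in corpus, while in antrum each inhibited library held less Dhcr7 than each vehicle library (log2 -0.18 ± 0.084, adjusted p 0.129). With the line as a block, which uses the pairing of the arms, Acat2 (log2 0.19, adjusted p 0.0274) and Tm7sf2 (0.32, adjusted p 0.0123) passed in corpus as higher. Both also passed in corpus without vehicle line 8028 (adjusted p 0.0157 for Acat2 and 0.00783 for Tm7sf2), and Tm7sf2 without inhibited line 8026 (0.0346) and with DESeq2 (0.0374).

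**Figure D2:**
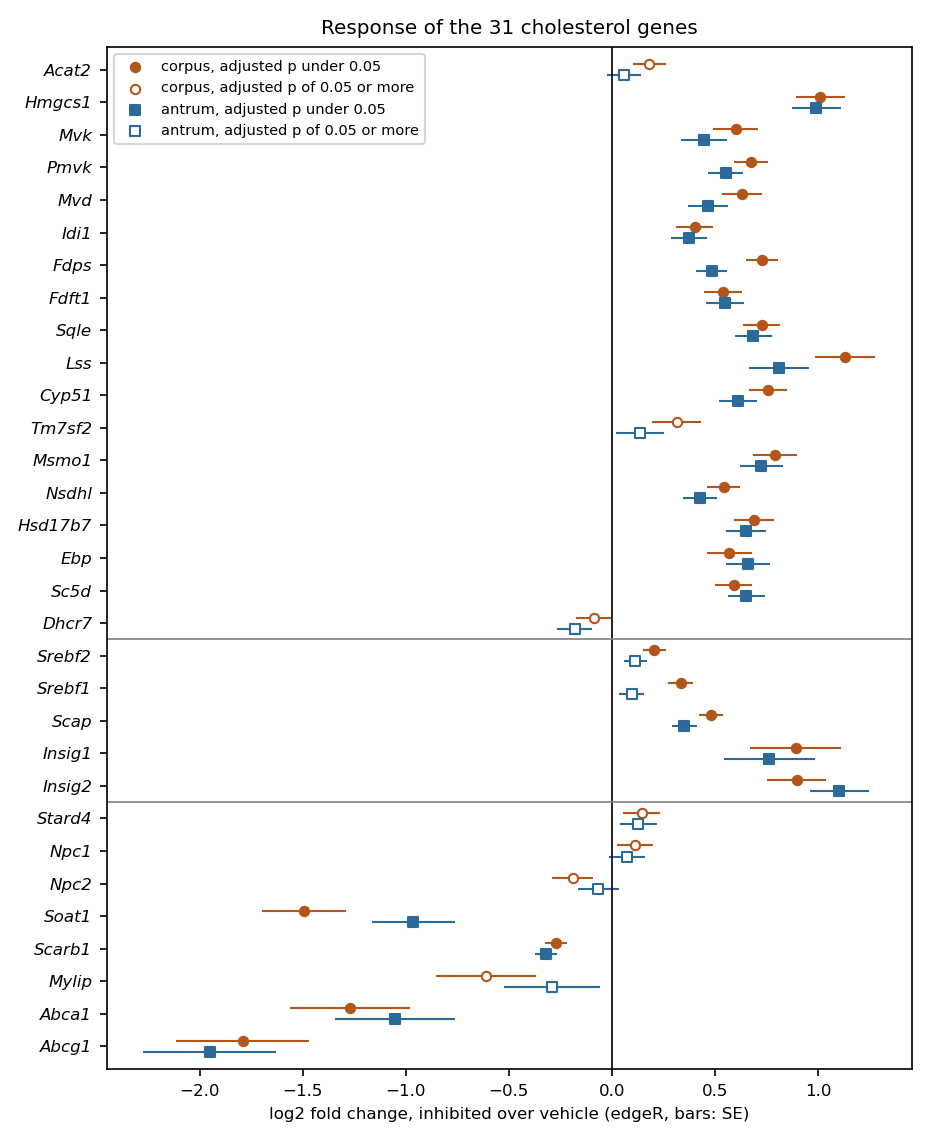
Log2 fold change of each cholesterol gene, inhibited over vehicle, in corpus (circles) and antrum (squares), with bars of 1 SE from the fit of all 12 libraries and filled symbols for an adjusted p under 0.05. Synthesis enzymes lie to the right of 0 except Dhcr7, sensing genes lie to the right, and Soat1, Abca1 and Abcg1 lie farthest to the left.

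Because most synthesis enzymes moved together, promoters of 5 of the cholesterol genes are shown. RefSeq promoter windows on GRCm38.p6, running from 250 bases before to 50 bases after a start, were at hand for 24 of the 31 genes (32 windows). The 3 motifs below were searched on both strands: the sterol regulatory element bound by SREBP factors (TCACNCCAC), the NF-Y box (CCAAT) and the SP1 box (GGGCGG). The 5 windows below are written 5′ to 3′ on the gene's strand, with capitals on letters that match the sterol element or the NF-Y box on either strand. Hmgcs1 is shown as the gene with the sterol element, Mvk for its 5 NF-Y boxes, Insig2 (the window with boxes, out of 3) for its rise in both regions, and Soat1 and Abca1 as genes that fell.
Hmgcs1, chr13:119690101-119690400, plus strand: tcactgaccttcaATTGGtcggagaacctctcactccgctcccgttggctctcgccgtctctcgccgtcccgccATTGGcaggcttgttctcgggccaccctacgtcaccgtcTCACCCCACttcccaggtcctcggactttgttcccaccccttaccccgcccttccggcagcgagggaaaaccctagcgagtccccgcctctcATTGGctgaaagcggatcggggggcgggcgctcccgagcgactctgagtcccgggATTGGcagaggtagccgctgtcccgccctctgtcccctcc
Mvk, chr5:114444019-114444318, plus strand: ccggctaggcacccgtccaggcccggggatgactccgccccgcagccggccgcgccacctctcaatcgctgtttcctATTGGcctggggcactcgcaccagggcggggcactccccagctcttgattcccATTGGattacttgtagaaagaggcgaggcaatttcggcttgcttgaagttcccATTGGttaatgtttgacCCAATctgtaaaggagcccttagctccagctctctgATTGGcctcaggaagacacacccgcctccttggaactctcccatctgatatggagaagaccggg
Insig2, chr1:121332540-121332839, minus strand: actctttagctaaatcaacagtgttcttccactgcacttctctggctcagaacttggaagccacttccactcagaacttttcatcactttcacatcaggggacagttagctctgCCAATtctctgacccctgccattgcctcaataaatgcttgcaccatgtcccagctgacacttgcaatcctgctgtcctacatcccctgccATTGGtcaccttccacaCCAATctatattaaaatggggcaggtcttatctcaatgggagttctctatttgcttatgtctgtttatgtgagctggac
Soat1, chr1:156474279-156474578, minus strand: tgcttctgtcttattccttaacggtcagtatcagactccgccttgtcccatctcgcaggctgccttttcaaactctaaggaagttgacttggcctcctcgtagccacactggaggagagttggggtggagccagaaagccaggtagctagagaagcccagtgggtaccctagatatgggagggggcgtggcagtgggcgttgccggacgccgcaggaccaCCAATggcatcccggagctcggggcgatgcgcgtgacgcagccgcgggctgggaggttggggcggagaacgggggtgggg
Abca1, chr4:53159846-53160145, minus strand: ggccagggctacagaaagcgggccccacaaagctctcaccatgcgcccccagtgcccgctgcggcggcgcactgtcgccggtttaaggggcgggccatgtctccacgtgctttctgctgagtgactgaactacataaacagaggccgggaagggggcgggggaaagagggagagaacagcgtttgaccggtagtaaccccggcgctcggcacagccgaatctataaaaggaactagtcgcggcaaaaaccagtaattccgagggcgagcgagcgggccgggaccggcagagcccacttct

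In the Hmgcs1 window the sterol element reads TCACCCCAC on the plus strand, with its first base at -137 from the start, and NF-Y boxes lie on both sides of it. No other gene with a window held a full match to this string, and 1.242% of all 32851 mouse windows did. Sterol elements with other letters were not searched for. Fdps, Fdft1, Sqle, Stard4, Npc1, Scarb1 and Abcg1 had no window. The NF-Y box was in at least 1 window of 21 of the 24 genes, in 22 of 32 windows, against 37.41% of all windows. Abca1, Acat2 and Scap had windows and no NF-Y box. The SP1 box was in 27 of the 32 windows, against 35.66% of all windows. Genes with an NF-Y box included ones that rose, fell or did not pass (Insig2, Soat1 and Dhcr7), and so did the 3 without one (Scap, Abca1 and Acat2). These matches describe letters in a short window and do not show that a factor is bound.

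All 5 genes of sterol sensing rose in corpus and 3 of them (Scap, Insig1 and Insig2) in antrum. Insig1, which retains SCAP in the endoplasmic reticulum and is itself a target of SREBP factors, had 502, 438 and 284 CPM in inhibited corpus and 216, 227 and 218 CPM in vehicle corpus. In antrum it had 356, 310.4 and 409.9 CPM in inhibited and 184, 167 and 284 CPM in vehicle organoids. Inhibited libraries spread widely and vehicle corpus libraries hardly at all, without overlap in either region, at log2 0.89 ± 0.22 in corpus (adjusted p 0.0102) and 0.76 ± 0.22 in antrum (adjusted p 0.0231). The antral call was lost without inhibited line 8025 (adjusted p 0.0573), inhibited line 8028 (0.0808), vehicle line 8025 (0.0783) or vehicle line 8026 (0.0807), and the corpus call without both libraries of line 8025 (0.0948) or of line 8026 (0.085).

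Insig2, its paralogue (ENSMUSG00000003721, GRCm38 chr1:121304353-121332589), had 114, 105 and 79.2 CPM in inhibited corpus and 52.5, 53.3 and 54.4 CPM in vehicle corpus, and 96.3, 91.03 and 99.8 CPM in inhibited antrum and 44.00, 36.4 and 53.4 CPM in vehicle antrum. It rose in every line, by log2 0.90 ± 0.14 in corpus (adjusted p 0.000725) and 1.10 ± 0.14 in antrum (adjusted p 0.000199), and kept both calls under every alternative tried. Scap, the escort, had 110.3, 116 and 102 CPM in inhibited corpus and 82.7, 74.9 and 78.2 CPM in vehicle corpus, and 106, 107 and 105 CPM in inhibited antrum and 80.98, 84.9 and 82.9 CPM in vehicle antrum. Its rise was smaller, log2 0.48 ± 0.060 in corpus (adjusted p 0.000136) and 0.35 ± 0.060 in antrum (adjusted p 0.00112), with groups apart in both.

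The SREBP genes had the smallest changes of the 5. Srebf2, the main driver of cholesterol synthesis, had 349, 361 and 332 CPM in inhibited corpus and 296, 298 and 309.7 CPM in vehicle corpus, and 351, 351 and 350.3 CPM in inhibited antrum and 320.3, 309 and 345 CPM in vehicle antrum. Srebf1, which favours fatty acid genes, had 177, 193 and 190.3 CPM in inhibited corpus and 148, 139 and 159 CPM in vehicle corpus, and 195, 191 and 188 CPM in inhibited antrum and 179, 187 and 171 CPM in vehicle antrum. Groups did not overlap in either region, but the changes were small: log2 0.20 ± 0.056 for Srebf2 and 0.33 ± 0.062 for Srebf1 in corpus (adjusted p 0.0168 and 0.00189), and 0.11 ± 0.056 and 0.095 ± 0.062 in antrum (adjusted p 0.157 and 0.274). In corpus the Srebf2 call was lost without vehicle line 8026 (adjusted p 0.0589), without both libraries of line 8025 (0.111) or 8026 (0.165), in a fit of only the libraries compared (0.0665), and with unscaled totals, where Srebf1 was lost too (0.699 for Srebf2 and 0.184 for Srebf1).

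**Figure D3:**
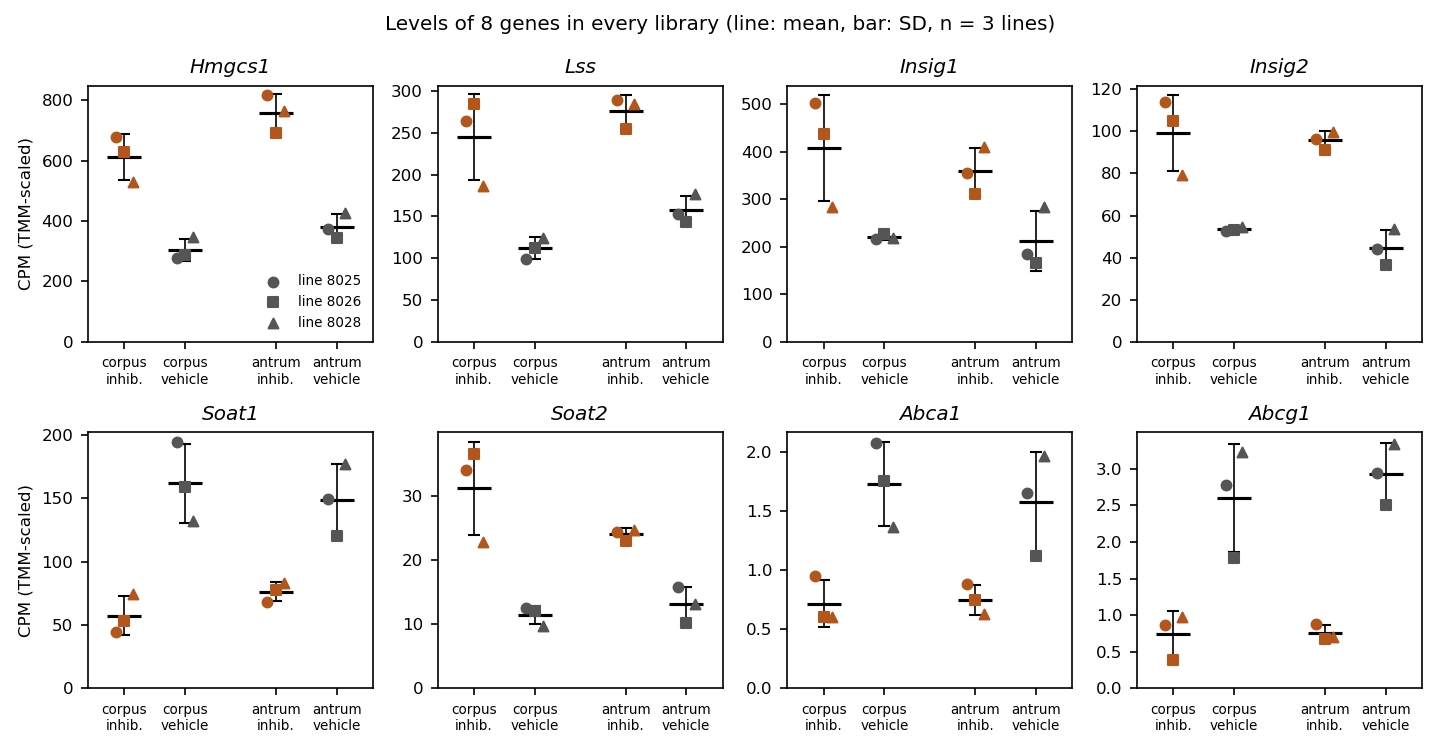
CPM of 8 genes in every library (symbols by line), with the group mean as a line and the SD as a bar, inhibited groups in orange and vehicle groups in grey. Hmgcs1, Lss, Insig1, Insig2 and Soat2 are higher, and Soat1, Abca1 and Abcg1 lower, in each inhibited library than in each vehicle library of its region.

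Of the 8 genes of transport, esterification and efflux, 4 fell in each region (Soat1, Scarb1, Abca1 and Abcg1), none rose, and 4 did not pass. Soat1 (ENSMUSG00000026600, GRCm38 chr1:156424525-156474331), which esterifies cholesterol for storage in droplets, had 44.6, 53.3 and 74.4 CPM in inhibited corpus and 194, 159 and 132 CPM in vehicle corpus. Antral values were 68.1, 77.6 and 83.1 CPM in inhibited and 149, 120.4 and 177 CPM in vehicle organoids. Line 8028 of corpus had both the highest inhibited and the lowest vehicle value, and the groups still did not overlap. Soat1 fell by log2 1.49 in corpus (SE 0.20, adjusted p 0.00026) and by 0.96 in antrum (SE 0.20, adjusted p 0.00391).

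The exporters were among the least abundant of the 31 genes. Abcg1, which passes cholesterol to lipoprotein particles (ENSMUSG00000024030, GRCm38 chr17:31057675-31117988), had 0.865, 0.385 and 0.978 CPM in inhibited corpus and 2.79, 1.79 and 3.23 CPM in vehicle corpus, and 0.880, 0.672 and 0.704 CPM in inhibited antrum and 2.95, 2.504 and 3.34 CPM in vehicle antrum. Abca1, which loads lipid-poor apolipoproteins, had 0.948, 0.599 and 0.602 CPM in inhibited corpus and 2.07, 1.75 and 1.36 CPM in vehicle corpus, and 0.880, 0.746 and 0.626 CPM in inhibited antrum and 1.65, 1.12 and 1.96 CPM in vehicle antrum. Every inhibited library lay below every vehicle library of its region for both genes, on 9 to 97 counts per library for Abcg1 and 14 to 70 for Abca1. Abcg1 changed by log2 -1.79 ± 0.32 in corpus (adjusted p 0.00152) and -1.95 ± 0.32 in antrum (adjusted p 0.000898), the largest changes in size among the 31 genes. Abca1 changed by -1.27 ± 0.29 in corpus (adjusted p 0.00624) and -1.05 ± 0.29 in antrum (adjusted p 0.0184). Its antral call was lost without inhibited line 8026 (adjusted p 0.0539) or 8028 (0.0662) and without vehicle line 8025 (0.051) or 8028 (0.0731), and its corpus call without both libraries of line 8026 (0.0733).

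Scarb1, the receptor that exchanges cholesterol with high-density lipoprotein, had 49.4, 48.6 and 52.1 CPM in inhibited corpus and 60.8, 60.01 and 60.5 CPM in vehicle corpus, and 47.6, 48.7 and 46.9 CPM in inhibited antrum and 60.8, 57.2 and 60.9 CPM in vehicle antrum. The fall was small and even, log2 -0.27 ± 0.053 in corpus (adjusted p 0.00249) and -0.32 ± 0.053 in antrum (adjusted p 0.000915). Without antral vehicle lines 8025 and 8028, the libraries rich in ribosomal RNA-like sequence, the antral adjusted p was 0.0507 for Scarb1, 0.125 for Soat1 and 0.334 for Abca1, with 1 antral vehicle library left, whose spread is then taken from the other groups.

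Among the cholesterol genes described so far, the 3 that move cholesterol inside the cell did not pass. Npc1 and Npc2, which release cholesterol from lysosomes, changed by log2 0.11 ± 0.087 and -0.19 ± 0.10 in corpus and by 0.074 ± 0.087 and -0.066 ± 0.10 in antrum. Stard4, a sterol carrier, changed by 0.14 ± 0.090 in corpus and 0.13 ± 0.090 in antrum. Groups overlapped for these 3 genes in both regions, and 4.5% of the exon bases of Npc1 overlap Rmc1 on the other strand. Mylip, a ubiquitin ligase that removes lipoprotein receptors, had 1.36, 1.11 and 1.35 CPM in inhibited corpus and 1.96, 1.98 and 1.93 CPM in vehicle corpus, and 1.44, 2.201 and 3.01 CPM in inhibited antrum and 2.95, 2.603 and 2.59 CPM in vehicle antrum. Its corpus groups were apart and its antral groups overlapped, and neither difference passed (log2 -0.61 ± 0.24, adjusted p 0.0782, in corpus and -0.29 ± 0.23, adjusted p 0.376, in antrum). In corpus, Npc2 passed as lower when the line was a block (adjusted p 0.0414), without inhibited line 8025 (0.0316), and, like Mylip (0.0358), with unscaled totals (0.024).

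Beyond the 31 genes, 37 further genes of sterol branches, sensing, uptake, efflux and ester handling were listed, of which 30 had enough counts. In corpus 6 were higher, 5 lower and 19 did not pass, and in antrum 7 were higher, 5 lower and 18 did not pass, with medians of 0.06 in corpus and 0.08 in antrum. Among all genes, 15.5% were higher and 15.4% lower in corpus, and 16.3% higher and 13.4% lower in antrum. Soat2, the other cholesterol esterifying enzyme, had 34.04, 36.6 and 22.9 CPM in inhibited corpus and 12.4, 12.02 and 9.75 CPM in vehicle corpus, and 24.3, 22.98 and 24.7 CPM in inhibited antrum and 15.8, 10.2 and 13.2 CPM in vehicle antrum. It rose where Soat1 fell, by log2 1.45 ± 0.19 in corpus (adjusted p 0.000183) and 0.89 ± 0.19 in antrum (adjusted p 0.00435).

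Stard5, a sterol-binding protein, had 58.1, 57.4 and 50.1 CPM in inhibited corpus and 24.1, 21.9 and 26.4 CPM in vehicle corpus, and 52.6, 51.97 and 52.1 CPM in inhibited antrum and 23.9, 27.8 and 28.6 CPM in vehicle antrum. Its change was log2 1.19 ± 0.091 in corpus (adjusted p 5.4e-06) and 0.96 ± 0.091 in antrum (adjusted p 2.13e-05), with groups far apart. Lipa, the lysosomal acid lipase that frees cholesterol from lipoprotein esters, averaged 41.95 ± 4.75 CPM in inhibited and 18.8 ± 0.234 CPM in vehicle antrum (log2 1.16 ± 0.10, adjusted p 1.38e-05), and 36.5 ± 2.92 CPM in inhibited and 23.5 ± 2.46 CPM in vehicle corpus (log2 0.64 ± 0.10, adjusted p 0.000713). The named genes that fell were a transfer protein and an ester hydrolase. Gramd1a, which carries cholesterol from the plasma membrane to the endoplasmic reticulum, averaged 18.2 ± 4.04 CPM in inhibited and 37.2 ± 7.43 CPM in vehicle corpus (log2 -1.03 ± 0.20, adjusted p 0.00265) and 13.4 ± 2.48 CPM in inhibited and 33.6 ± 5.17 CPM in vehicle antrum (log2 -1.32 ± 0.21, adjusted p 0.000647). Nceh1, the neutral cholesterol ester hydrolase, averaged 47.7 ± 5.68 CPM in inhibited and 77.2 ± 6.75 CPM in vehicle corpus (log2 -0.69 ± 0.10, adjusted p 0.000393). In antrum it was also lower, with 42.6, 42.3 and 45.7 CPM in inhibited and 63.0, 62.1 and 73.7 CPM in vehicle organoids.

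Per kilobase of exon, the levels spanned a wide range. The length used merges all annotated exons of a gene, so comparisons between genes are approximate and depend on it. Insig1, at 132 ± 36.2 CPM per kb in inhibited and 71.2 ± 1.83 in vehicle corpus, and Hmgcs1, at 133 ± 16.8 in inhibited and 66.3 ± 7.98 in vehicle corpus (SD, n = 3), stood at the top. In both corpus groups these 2 genes differed by less than the SD of Hmgcs1, though in vehicle corpus by more than that of Insig1. In antrum Hmgcs1 had the higher mean, at 165 ± 13.5 against 116 ± 16.1 for Insig1 in inhibited and 83.1 ± 9.28 against 68.4 ± 20.4 in vehicle organoids. In vehicle antrum the 2 genes differed by less than the SD of Insig1, though by more than that of Hmgcs1. Cyp51, Idi1 and Fdps followed at 48.2 ± 4.08, 47.5 ± 6.58 and 46.4 ± 5.29 CPM per kb in vehicle corpus, within 1 SD of each other. At the bottom were Mylip, Abcg1 and Abca1, at 0.605 ± 0.00717, 0.356 ± 0.101 and 0.167 ± 0.0343 CPM per kb in vehicle corpus. Their means had that order in all 4 groups. In inhibited corpus, Abcg1 (0.102 ± 0.0431) and Abca1 (0.0691 ± 0.0193) differed by less than the SD of Abcg1. Soat1 stood 27th of the 31 genes in inhibited and 18th in vehicle corpus, and 26th in inhibited and 19th in vehicle antrum, whereas Insig2 stood 14th in inhibited and 20th in vehicle corpus.

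Between regions, every synthesis enzyme was at a higher mean level in antrum than in corpus, under both treatments, yet only 1 of these differences passed. Among vehicle organoids the log2 difference, antrum minus corpus, had a median of 0.39 over the 18 enzymes and ranged from 0.23 for Sc5d to 0.68 for Tm7sf2, against a median of -0.01 over all genes. Of all genes tested, 49.0% had a positive difference. Few genes of any kind passed, 0.0681% of all genes as higher and 0.13% as lower in antrum. Fdps was the 1 member called, at 278, 276 and 300.5 CPM in vehicle antrum and 177, 188 and 220.0 CPM in vehicle corpus, a difference of 0.55 ± 0.076 (adjusted p 0.0304). All 18 enzymes had an unadjusted p under 0.05, and the other 17 had adjusted p up to 0.263. The groups did not overlap for 14 of the 18. The share of all genes without overlap, or with an unadjusted p under 0.05, was not counted. Of the sensing genes, 3 were higher and 2 lower in mean, and none passed, as was so for the 8 transport genes.

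The same held after inhibition, without a call. Antrum exceeded corpus in all 18 enzymes, while 51.3% of all genes tested had a positive difference. The median log2 difference of the enzymes was 0.31, with a range from 0.17 for Lss to 0.50 for Tm7sf2. For 17 of the 18 the groups did not overlap. No member passed with edgeR, where 16 of the 18 enzymes had an unadjusted p under 0.05, none passed with limma-voom, and 6 members passed with DESeq2. With edgeR the background was 0.0495% of all genes higher and 0.0124% lower in antrum. Shares of all genes called with DESeq2, with an unadjusted p under 0.05, or without overlap were not counted. Sterol-sensing genes lay between -0.19 for Insig1 and 0.03 for Srebf1. Growth medium held 10% serum in antrum and 20% in corpus, and serum and region cannot be told apart here.

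Corpus line 8028 weighed on both comparisons. In vehicle corpus it was the highest of the 3 lines for 16 of the 18 enzymes. In inhibited corpus it was the highest for 6 and the lowest for 11 of them. Pdx1 was at 29.8 to 32.8 CPM in vehicle antrum. In vehicle corpus it was at 27.2 CPM in this line, and at 20.7 and 19.8 CPM in lines 8025 and 8026. Whether Pdx1 and the enzyme levels of this line are linked was not tested. Without its vehicle library 9 members were called higher in vehicle antrum, and without both of its libraries 18 were. Among inhibited organoids, 7 members were called without the inhibited library of this line and 11 without both. There the median did not grow, at 0.26 and 0.25 against 0.27 with all libraries. How many of all genes were called in these fits was not counted. The Fdps call was lost without antral vehicle line 8025 (adjusted p 0.122) or 8028 (0.0506) and without corpus vehicle line 8025 (0.108) or 8026 (0.182).

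**Figure D4:**
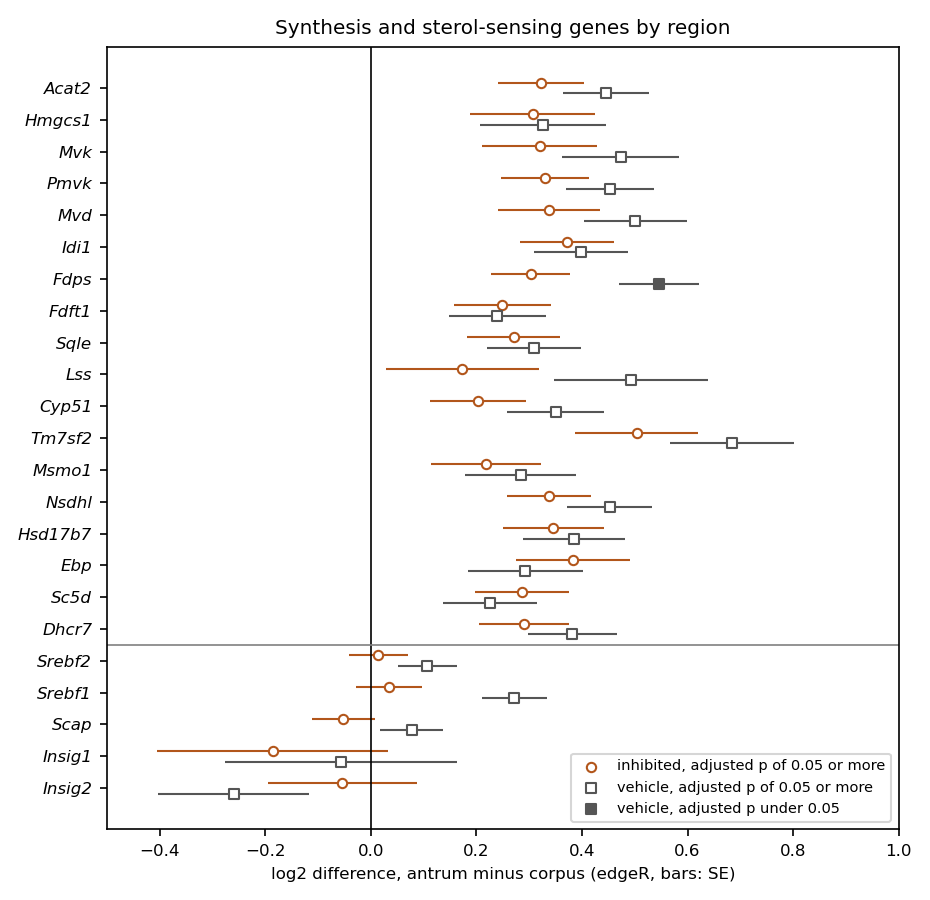
Log2 difference of antrum minus corpus for the 18 synthesis and 5 sterol-sensing genes, in inhibited organoids (circles) and vehicle organoids (squares), with bars of 1 SE and a filled symbol for an adjusted p under 0.05. All synthesis genes lie to the right of 0 in both states, Fdps in vehicle is the 1 filled symbol, and the sensing genes lie around 0.

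The response itself was not shown to differ between regions. The difference of the 2 log2 changes, antrum minus corpus, ranged from -0.32 for Lss to 0.53 for Soat1, and all 31 adjusted p were 1. Over all genes 0.00619% were called higher and 0% lower in this test. At an unadjusted p under 0.05 stood 2 members, Fdps (-0.24 ± 0.11, p 0.04285) and Srebf1 (-0.24 ± 0.087, p 0.01962). How many of all genes had such a p was not counted. No member passed with DESeq2 or limma-voom. Soat1 changed by -0.96 in antrum and -1.49 in corpus, a difference of 0.53 ± 0.28 (unadjusted p 0.0873). A p that misses the threshold does not show that the regions responded alike.

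The size of the change varied between lines. Of all 18 synthesis enzymes, 17 were higher in the inhibited arm of each corpus line and 15 in that of each antral line. The exceptions were Dhcr7, with log2 ratios of 0.16, -0.11 and -0.30 in corpus and -0.21, -0.22 and -0.12 in antrum, and in antrum Tm7sf2 (0.21, -0.054 and 0.23) and Acat2 (0.10, 0.092 and -0.011). For the 15 enzymes called in both regions, groups that do not overlap fix the sign in every line, so only the size of the ratio is described. In corpus their median log2 ratio was 0.88 in line 8025, 0.77 in line 8026 and 0.48 in line 8028, and line 8028 had the smallest ratio for 14 of the 15. Antral medians were 0.64 in line 8025, 0.65 in line 8026 and 0.49 in line 8028, with the smallest ratio in line 8028 for 13 of the 15. For Hmgcs1 the ratios were 1.28, 1.13 and 0.61 in corpus and 1.13, 1.01 and 0.84 in antrum. Corpus line 8028 is also the line whose inhibited library kept the most Axin2 (18.7 CPM), and the part of that in its smaller ratios was not tested. Antral line 8028 kept 11.3 CPM, the lowest of the antral inhibited libraries. The labels do not say whether corpus line 8028 and antral line 8028 came from 1 mouse.

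**Figure D5:**
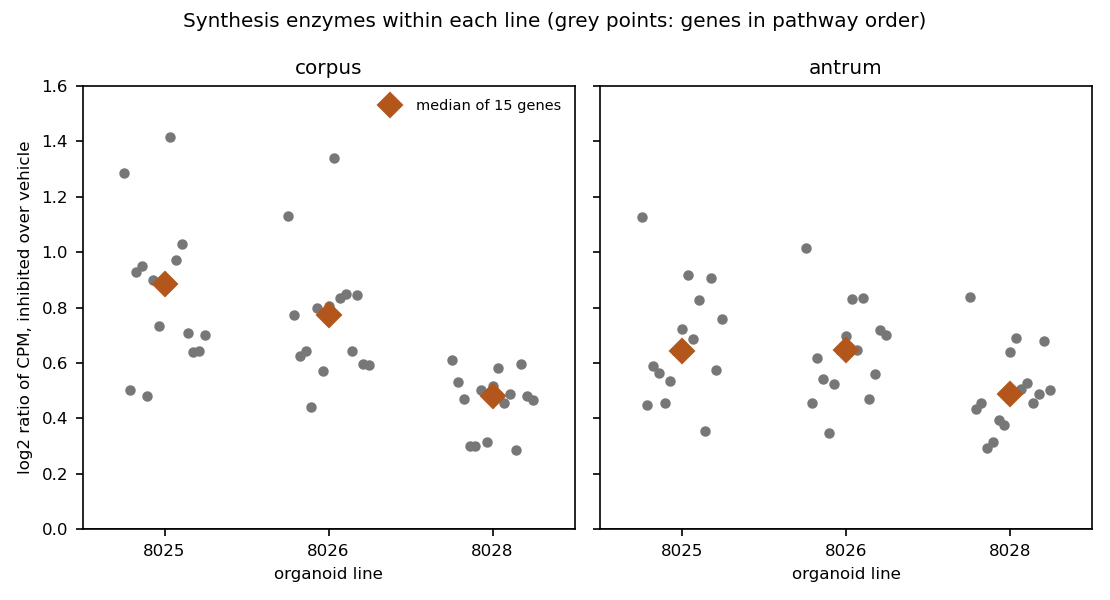
Log2 ratio of CPM, inhibited over vehicle, within each line for the 15 synthesis enzymes called in both regions (grey points) and their median (diamonds), in corpus and antrum. The choice of called genes without overlap puts all points above 0. The medians of line 8028, at 0.48 in corpus and 0.49 in antrum, are the lowest of each region.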

How the data were processed

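Polyadenylated RNA of 12 organoid libraries was sequenced after NEBNext library preparation, per the labels. The authors deposited expected counts per gene, per the file headers, which were already whole numbers. The genome build GRCm38 and the tools STAR 2.7.8a, RSEM 1.3.3, cutadapt 2.3 and FastQC 0.11.8 are named in the submitters' processing notes. Neither strandedness nor the annotation release is given in the sources used here. Of 55426 rows, 5 that name no mouse gene held 2 counts in all and were left out. Positions and exon lengths are from GENCODE M21 on GRCm38 (55240 identifiers matched).

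Counts were tested with edgeR 4.0.16 in R 4.3.3: TMM scaling, filterByExpr by group (16152 genes kept), and a robust quasi-likelihood fit of the 4 groups to all 12 libraries (8 residual degrees of freedom). Two-sided p-values were Benjamini-Hochberg adjusted over all genes tested, with calls under 0.05. The test was tried on simulated data first. CPM use TMM-scaled totals.

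The members, lists and promoter motifs were chosen with earlier results of these data known. All 31 members are described. Of the 37 further genes, up to 4 per treatment comparison are named, those with the largest absolute log2 change among genes that passed with a mean of at least 5 CPM. The Axin2 and Lgr5 checks, markers and promoter motifs follow fixed lists. The 5 promoters shown were picked by their motifs and by the changes of their genes. Overlapping genes (Ctsb, Vps51, Rmc1) and Acat3 were named after their values were seen.

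Same-numbered lines pair the arms within a region, since the labels say that the same lines received both treatments. Their deviations from the group means correlated at 0.157 to 0.544. Across regions the correlations were -0.104 to 0.277, and the numbers were not taken as pairs. Libraries of a group differed by more than sampling noise, with a chi-square of 10.0 or more for each degree of freedom.

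Alternatives were RLE, upper quartile and unscaled totals, DESeq2 1.42.0, limma-voom (limma 3.58.1), no filter, a filter of 1 CPM in 3 libraries, a fit of only the libraries compared, a block on the line, leaving out each library, each line and antral vehicle lines 8025 and 8028 together, and, chosen after seeing the data, removal of ribosomal RNA-like genes.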

Additional observations from a re-analysis of the deposited data

How the results depend on the processing

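The treatment calls held under most alternatives. In corpus 21 to 27 of the 31 genes were called and in antrum 17 to 22, against 24 and 22. No called gene changed direction. The share of all genes called under each alternative was not counted. With the line as a block, corpus gained Acat2, Tm7sf2 and Npc2 (27 calls), antrum had 22, and no other call of the 31 genes changed. Unscaled totals moved the median of all genes by -0.16 on the log2 scale in corpus, where 17 genes were then called higher and 6 lower. The antral calls of Mvk, Mvd and Idi1 were lost when both libraries of line 8025 were left out (adjusted p 0.0703, 0.0619 and 0.0856) or 8026 (0.0677, 0.0515 and 0.0561), and that of Mvk without both of line 8028 (0.0553). With antral vehicle lines 8025 and 8028 left out together, Idi1 (0.0973) and Mvk (0.152) were lost as well, and 17 antral calls were left. With unscaled totals Mvk was lost in antrum (0.0561), and without a low-count filter Insig1 was (0.0752).

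Calls between regions depended on the processing. In vehicle organoids the count of members called, 1, was 12 with DESeq2, 6 without a low-count filter, 3 with the shared line number as a block, although that number does not pair the regions, and 0 with only the libraries compared, with unscaled totals or without antral vehicle lines 8025 and 8028. Leaving out 1 library or line gave 0 to 18. In inhibited organoids the count, 0, was 6 with DESeq2 and 0 with that block, and 0 to 11 when a library or line was left out. The share of all genes called was counted for the main fit alone, and the causes were not tested. With 3 lines a group, the p-values speak only for the spread between these lines. The depth limits the exporters most, at 9 to 97 counts a library for Abcg1.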
